A study of Mus musculus with 2 samples.

Results

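The Iroquois homeobox genes Irx1 to Irx6 were examined in the open chromatin of mouse cardiac progenitor cells (CPCs). Peaks were taken as members when the gene symbol deposited beside them was Irx1, Irx2, Irx3, Irx4, Irx5 or Irx6, and a gene without such a peak was counted as 0. Of 26232 distinct peaks, 16 carried an Irx symbol, and these belonged to 4 of the 6 genes. The assay was ATAC-seq, which marks accessible DNA by the adapters that a transposase, Tn5, places there. The cells came from E14 Tg(Nkx2–5-EmGFP) ES cells, a mouse embryonic stem cell line with a fluorescent reporter of the cardiac gene Nkx2-5, labelled as strain C57BL/6. They were collected at day 5 of differentiation, from 2 independent differentiations per the study's methods, with no treatment given in the labels. Whether the cells for ATAC-seq were sorted for the reporter is not given in the sources used here, and knockdown cells were not analysed here. Both samples form 1 group and share 1 list of peaks called in both, without a value for either sample. Read depth was therefore unknown, no replicate error or test across samples could be obtained, and the absence of a peak from the list does not measure closed chromatin.

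Iroquois proteins are transcription factors of the TALE class, named for extra residues in a loop of the homeodomain. The genes lie in paralogous clusters that arose by duplication, IrxA with Irx1, Irx2 and Irx4 and IrxB with Irx3, Irx5 and Irx6. They are surrounded by long stretches without other coding genes, where regulatory elements can lie far from the gene they act on. In the heart, Irx4 is known as a ventricular factor, Irx3 for its role in the ventricular conduction system, Irx5 for the gradient of repolarization across the ventricular wall, and Irx1, Irx2 and Irx6 for expression in ventricular trabeculae or septum.

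The deposited list held 10 peaks for Irx3, 3 for Irx1, 2 for Irx4, 1 for Irx6 and none for Irx2 or Irx5. Of 21900 protein coding genes of a RefSeq table, 62.5% had at least 1 peak with their symbol, beside 4 of the 6 Irx genes. Irx3 was 1 of 19 genes with at least 10 peaks among 15351 genes in the list, a share of 0.124%. The IrxA cluster on chromosome 13 thus carried 5 peaks and the IrxB cluster on chromosome 8 carried 11. This difference followed the assigned symbols, since 12 peaks lay inside each cluster when position alone was counted, from the first base of the outermost Irx gene to the last base of the other.

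At the start sites the genes differed. A peak covered the annotated transcription start site (TSS) of Irx2, Irx3 and Irx6, and none covered that of Irx1, Irx4 or Irx5. By deposited distance to the peak midpoint, 2 of 6 Irx genes had a peak within 1 kb, Irx3 at 177 bp downstream and Irx6 at 129 bp upstream, beside 50.0% of all protein coding genes.

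**Figure D1:**
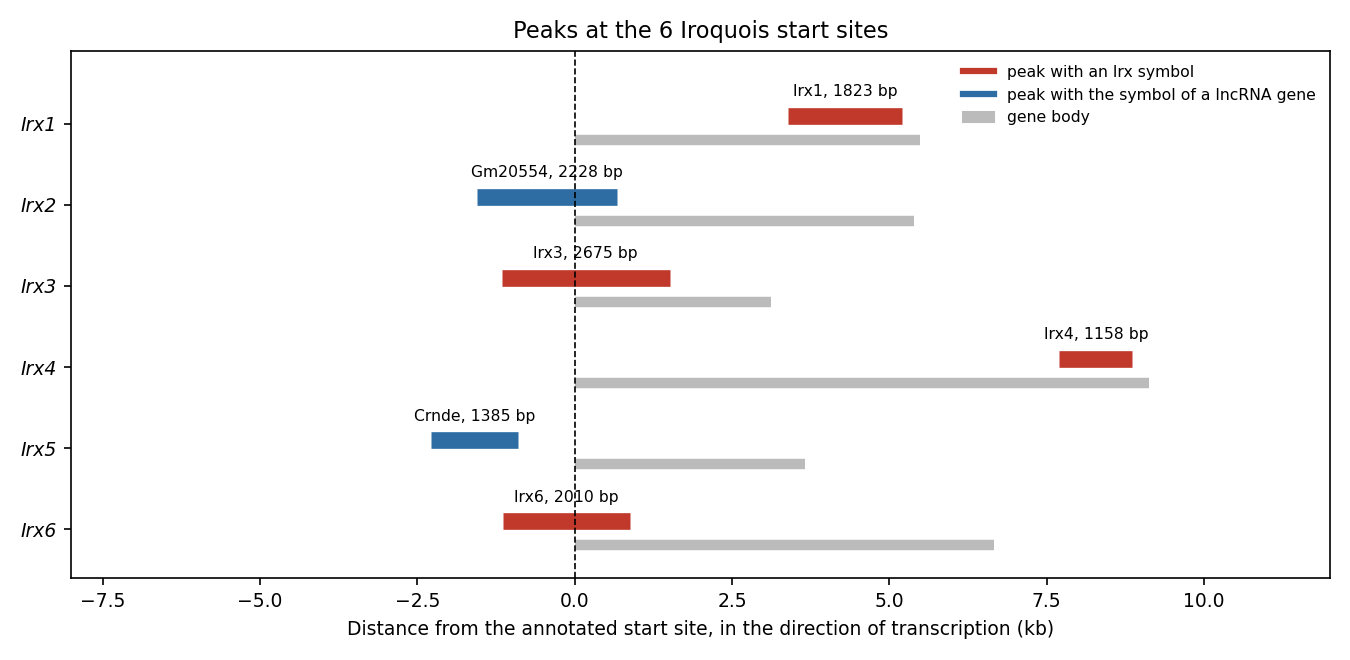
Peaks around the annotated start site of each Iroquois gene, drawn in the direction of transcription with the start site at 0 kb. Coloured bars are peaks with the symbol they carry and their width in bp, and grey bars are gene bodies. Peaks cross the start sites of Irx2, Irx3 and Irx6. The Irx5 peak ends 901 bp upstream, and the Irx1 and Irx4 peaks lie in the gene body.

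The widest Irx peak, at chr8:94324040-94326714, covered the start site of Irx3 and was 2675 bp long. Among 11772 peaks within 1 kb of a start site, 2.99% were at least as wide. It extended over exons 1 and 2 of 4 and held 934 coding bases. A non-coding gene, D230002A01Rik, overlaps Irx3 here, and the list does not separate the pair.

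The Irx6 peak, at chr8:95197055-95199064, was 2010 bp long, and 13.1% of peaks within 1 kb of a start site were at least as wide. It was the only peak that carried the Irx6 symbol. It reached into exon 1 of 6 and no further.

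The start site of Irx2 lay under a peak of 2228 bp at chr13:72764690-72766917, which carried the symbol Gm20554. Gm20554 is a long non-coding RNA (lncRNA) gene on the opposite strand. The peak midpoint lay 209 bp from the Gm20554 start site and 441 bp upstream of that of Irx2, so the nearest-gene rule gave the peak to the non-coding partner. Irx2 therefore counted as 0 although its promoter was inside a peak. Among 6091 coding promoters of genes without a peak of their own symbol, 12.9% overlapped a peak that carried another symbol.

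Irx5 showed the same arrangement with a different outcome. Its nearest peak, 1385 bp at chr8:94879410-94880794, carried the symbol of the divergent lncRNA gene Crnde, whose start site lay 82 bp from the midpoint. That peak ended 901 bp before the Irx5 start site, so the Irx5 promoter itself was not in the list.

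For Irx1 the nearest peak lay inside the gene, with its midpoint 4297 bp downstream of the start site and its edge 3385 bp away. It was 1823 bp long, at chr13:72095964-72097786, and spanned exons 2 to 4 of 4 with 1164 coding bases. For Irx4 the nearest peak had its midpoint 8282 bp downstream and its edge 7704 bp away. It was 1158 bp long, at chr13:73405649-73406806, and lay over exon 6 of 6 with 806 coding bases and 327 bases of UTR. Both genes thus had a peak over coding sequence in the later part of the gene and none at the start.

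All 6 start sites were rich in CpG, whether or not a peak covered them. CpG-rich promoters, defined within 500 bp of the TSS by a GC content of at least 50% and an observed CpG count of at least 0.6 of that expected from the base composition, overlapped a peak in 89.4% of 9966 cases. For a gene with several coding start sites, only the outermost upstream one was used. All 6 Irx promoters met this definition, and 3 of the 6 overlapped a peak. Irx6 met it narrowly, with 0.618 of the expected CpG count, beside 0.817 to 0.904 for the other Irx promoters. GC content was 70.3% for Irx1, 66.1% for Irx4 and 68.6% for Irx5, beside 73.8% for Irx2, 66.0% for Irx3 and 64.5% for Irx6. With 1000 bp on either side, the Irx5 promoter also met a peak and the count became 4 of 6, beside 90.0% of all CpG-rich promoters.

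The 150 bases upstream of each annotated start site are shown on the coding strand of mm9, with every CG in capitals, because they show CpG density with and without a peak. They span chr13:72101172-72101321 (Irx1, minus strand), chr13:73397795-73397944 (Irx4, plus strand) and chr8:94881545-94881694 (Irx5, plus strand) for the genes whose start site was not in a peak. Those of the genes with a covered start site span chr13:72766095-72766244 (Irx2, plus strand), chr8:94325554-94325703 (Irx3, minus strand) and chr8:95198038-95198187 (Irx6, plus strand).
Irx1 upstream: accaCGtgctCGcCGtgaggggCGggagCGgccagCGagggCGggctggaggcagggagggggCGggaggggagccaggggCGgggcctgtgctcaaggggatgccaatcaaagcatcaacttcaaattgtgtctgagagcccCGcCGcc
Irx4 upstream: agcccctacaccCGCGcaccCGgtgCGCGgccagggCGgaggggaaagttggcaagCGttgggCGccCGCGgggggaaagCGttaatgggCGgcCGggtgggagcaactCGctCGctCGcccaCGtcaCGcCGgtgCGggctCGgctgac
Irx5 upstream: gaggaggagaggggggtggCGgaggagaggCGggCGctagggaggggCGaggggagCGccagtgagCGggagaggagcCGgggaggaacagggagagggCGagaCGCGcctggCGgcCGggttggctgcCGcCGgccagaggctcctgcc
Irx2 upstream: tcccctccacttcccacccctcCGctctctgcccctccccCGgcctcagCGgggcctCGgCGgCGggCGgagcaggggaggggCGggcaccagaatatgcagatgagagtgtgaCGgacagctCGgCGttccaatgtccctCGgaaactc
Irx3 upstream: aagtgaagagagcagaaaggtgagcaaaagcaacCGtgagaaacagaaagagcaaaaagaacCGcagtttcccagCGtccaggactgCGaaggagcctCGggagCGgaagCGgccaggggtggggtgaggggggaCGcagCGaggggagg
Irx6 upstream: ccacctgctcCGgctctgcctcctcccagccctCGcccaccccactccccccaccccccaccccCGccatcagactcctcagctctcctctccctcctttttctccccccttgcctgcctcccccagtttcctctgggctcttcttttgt
Irx4 had the most CG, with 21, followed by Irx5 with 14, Irx2 with 12, Irx1 with 11, Irx3 with 9 and Irx6 with 3. Over 22359 coding promoters of the annotation the median was 6 CG. The 3 genes without a covering peak had 11 to 21 and the 3 with one had 3 to 12, so these ranges overlapped.

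The gene-body peak of Irx1 and the start-site peak of Irx3 shared sequence. When the 26 peaks inside the clusters or with an Irx symbol were aligned with one another, 1 pair between the clusters aligned and no pair within a cluster did. This pair aligned over 317 columns at 82.0% identity, from chr13:72097430-72097736 in the Irx1 peak to chr8:94324385-94324700 in the Irx3 peak. The aligned bases lay in exon 2 of 4 of each gene, with 304 coding bases in Irx1 and 313 in Irx3. When translated, both held the conserved residues of the homeodomain helix that contacts DNA. The coding exon with the homeobox was therefore in a peak in both genes, whereas the start site was in a peak for Irx3 only. The Irx4 gene-body peak, over the last exon, did not hold these residues.

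The longest stretch without a gap, 238 bases, is shown on the coding strand because it is the sequence the peaks of both clusters have in common. Capitals mark the 32 bases that differ (86.6% identity), in chr13:72097430-72097667 for Irx1 and chr8:94324385-94324622 for Irx3, both on the minus strand.
Irx1 exon 2: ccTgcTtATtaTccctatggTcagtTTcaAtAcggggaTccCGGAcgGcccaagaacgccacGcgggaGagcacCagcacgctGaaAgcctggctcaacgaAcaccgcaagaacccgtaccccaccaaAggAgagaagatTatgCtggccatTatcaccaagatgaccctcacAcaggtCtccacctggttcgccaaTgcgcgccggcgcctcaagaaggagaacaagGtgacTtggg
Irx3 exon 2: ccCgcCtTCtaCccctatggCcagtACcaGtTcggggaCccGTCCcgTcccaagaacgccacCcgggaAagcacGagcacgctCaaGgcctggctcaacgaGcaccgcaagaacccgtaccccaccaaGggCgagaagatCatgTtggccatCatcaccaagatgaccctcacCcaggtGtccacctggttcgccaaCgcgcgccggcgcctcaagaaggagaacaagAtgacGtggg
Of the 32 differing bases, 15 fell in the first 47 bases and 17 in the other 191, and the longest identical run was 30 bases.

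Most Irx peaks lay far from the gene. Of 16 peaks, 12 lay beyond 10 kb of the assigned start site (75.0%, 95% Wilson interval 50.5 to 89.8), beside 41.4% of all peaks. Beyond 100 kb lay 7 of 16 (43.8%) beside 8.20% of all peaks. Of the 12 beyond 10 kb, 10 were upstream of the gene, beside 43.3% of all peaks at that distance. All 10 belonged to Irx1 or Irx3, whose upstream side faces the next, divergent gene. A peak there that is assigned to either gene counts as upstream by layout. The Wilson interval covers counting error over peaks only, and peaks of 1 gene are neighbours rather than independent samples.

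Irx3, the conduction system gene, held 9 of the 12 distal peaks. Upstream, towards Irx5, they lay at 17373, 20271, 65679, 71163, 135719, 165353, 226673 and 270309 bp from its start site. Their widths in that order were 501, 621, 932, 722, 758, 551, 631 and 1227 bp. The narrowest lay nearest the gene, and the farthest upstream was the widest of these 8. That farthest peak, at chr8:94595250-94596476, aligned with 278 other peaks of the list, more than any other peak in the clusters, so part of it is repeated sequence. Of the 26 peaks compared, 8 aligned with any other peak of the list. The Irx3 start-site peak did so with 35, the Irx3 peak 224868 bp downstream with 17 and that 135719 bp upstream with 7.

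The remaining distal Irx3 peak lay on the other side, 224868 bp downstream of the start site, at chr8:94100158-94101214 with a width of 1057 bp. It lay inside Fto, an RNA demethylase gene, in intron 8 of 8 (transcript of 9 exons), an intron 143 kb long. No base of it was exonic. It was the only Irx peak for which an annotated start site of another coding gene, Fto, was nearer. All coding transcript starts were counted here, and the nearer one lay inside Fto. The outermost start of Fto lay farther from the peak than the Irx3 start site.

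Irx1 had distal peaks 246417 and 328874 bp upstream, towards Irx2, with widths of 865 and 558 bp. Irx4 had 1 distal peak, 29919 bp downstream at chr13:73427458-73428272, with a width of 815 bp. Irx6 had no distal peak. Thus the distal peaks of Irx1 and nearly all of those of Irx3 pointed into the interval between divergent genes, and that of Irx4 lay outside the cluster.

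**Figure D2:**
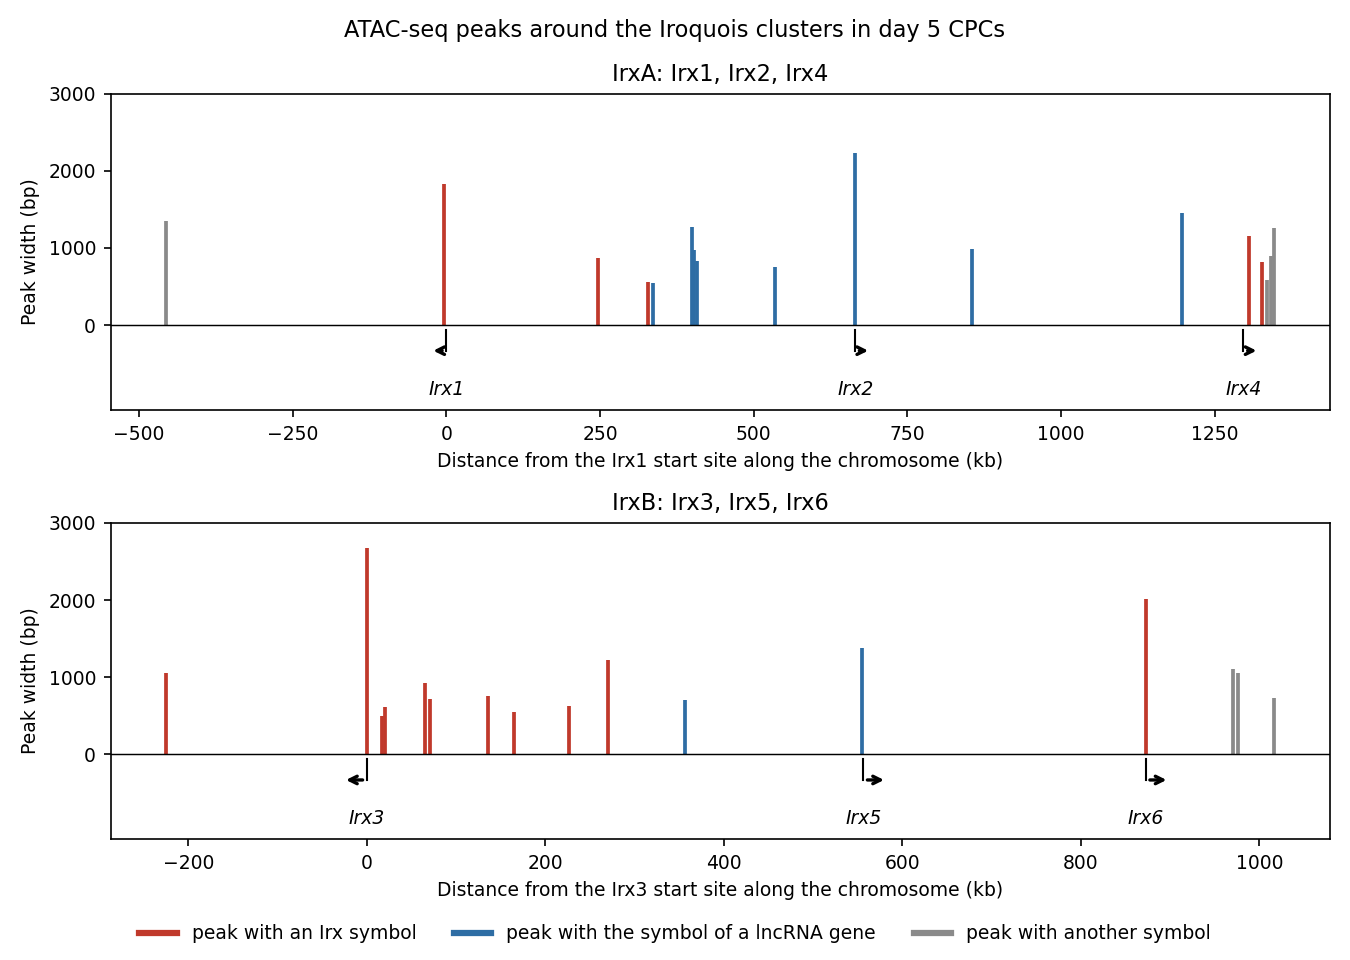
Peaks around both Iroquois clusters. The horizontal axis is the distance in kb along the chromosome from the start site of Irx1 (top) or Irx3 (bottom), and the height of each line is the peak width in bp. Arrows mark start sites and direction of transcription. Red peaks carry an Irx symbol, blue peaks that of a lncRNA gene and grey peaks another symbol, and most lines stand between the divergent genes Irx1 and Irx2 or Irx3 and Irx5.

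The clusters have the same layout, with the first gene on the minus strand and the other 2 on the plus strand, and peaks were counted by interval. Between the divergent start sites of Irx1 and Irx2, 665 kb apart, lay 8 peaks or 12.0 per Mb. Between those of Irx3 and Irx5, 556 kb apart, lay 10 peaks or 18.0 per Mb. The autosomes as a whole held 10.4 peaks per Mb.

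The intervals between genes on the same strand held few. Between Irx2 and Irx4, 632 kb apart, lay 2 peaks or 3.17 per Mb. Between Irx5 and Irx6, 316 kb apart, lay 1 peak or 3.16 per Mb, and it was the peak at the Irx6 start site itself. Both divergent counts include 1 peak near an Irx start site, that of Irx2 or Irx5. Without it they held 7 and 9 peaks, or 10.5 and 16.2 per Mb, so that between Irx1 and Irx2 the density lay close to the 10.4 of the autosomes, which include start-site peaks. Counting only peaks beyond 2 kb of the assigned start site, the autosomes held 5.52 per Mb, the divergent intervals the same 10.5 and 16.2, Irx2 to Irx4 1.58 and Irx5 to Irx6 none. With 1 value per interval and no replicate, these densities could not be tested.

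**Figure D3:**
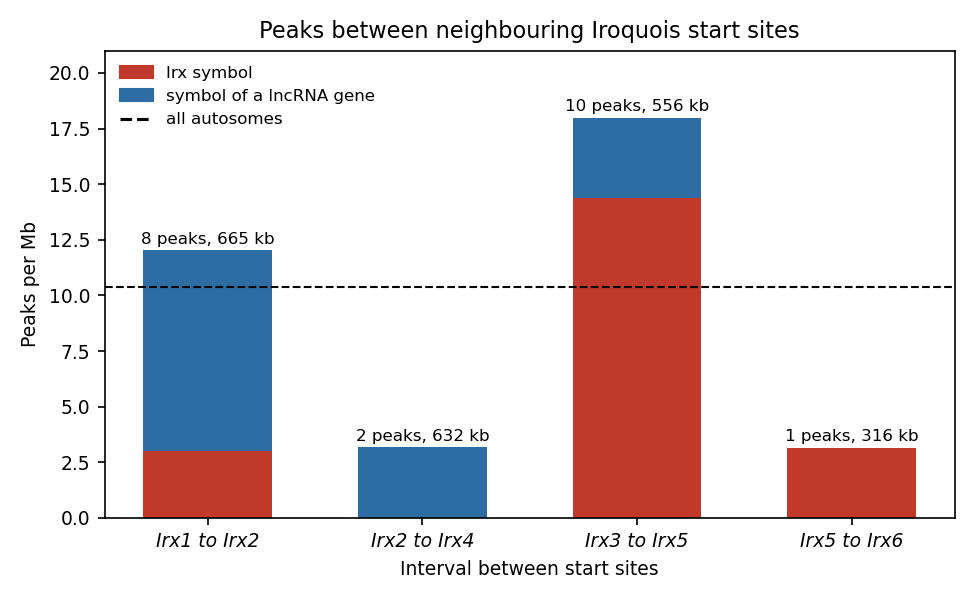
Peaks per Mb between neighbouring Iroquois start sites, split into peaks with an Irx symbol (red) and with the symbol of a lncRNA gene (blue), with the density over all autosomes as a dashed line at 10.4 per Mb. Number of peaks and interval length are printed above the bars. Both divergent intervals stand above the line, each with 1 peak near an Irx start site included, and both intervals to the last gene stand at 3.16 to 3.17 per Mb.

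Long peak-free stretches lay in both kinds of interval. Neighbouring peaks in the list were a median of 33.9 kb apart. From the Crnde peak near Irx5 to the Irx6 peak there was none for 316 kb, and 5.90% of gaps were at least as long. Between Irx2 and Irx4 a gap measured 341 kb (5.42%). Within the divergent intervals, 249 kb separated the gene-body peak of Irx1 from its first upstream peak (7.63%), and 197 kb separated the Crnde peaks (9.89%). On the outer side of Irx1 no peak was listed for 450 kb (3.93%), in the direction of the protease gene Adamts16.

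Inside IrxA, 8 of 12 peaks carried no Irx symbol. Of these, 6 carried Gm20554, 1 carried D730050B12Rik and 1 carried 4930555K05Rik, all annotated as lncRNA genes. Inside IrxB, 2 of 12 did so, both with Crnde. Peaks with the symbol of a lncRNA gene were thus the larger share inside IrxA and the smaller share inside IrxB.

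Between Irx1 and Irx2 the symbol changes near the middle of the interval. The nearest-gene rule fixes this place, because the Gm20554 start site lies beside that of Irx2. The Irx1 peak 328874 bp upstream of Irx1 and the Gm20554 peak 328745 bp from Gm20554 were 6.67 kb apart. They opened a run of 5 peaks within 79.2 kb at chr13:72429767-72509000, with widths of 542 to 1273 bp. Runs of 5 neighbouring peaks in the whole list had a median span of 195 kb, and 13.5% were as short. When each peak was given to the nearest protein coding start site, Irx2 gained 7 peaks, Irx5 had 2 and Irx3 had 9, and the clusters held 14 and 12.

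Downstream of Irx4 another run stood out. The Irx4 peak at 29919 bp and 3 peaks with the symbol of Ndufs6, a mitochondrial complex I subunit gene, lay within 21.3 kb at chr13:73427458-73448755. Of all runs of 4 neighbouring peaks, 0.489% were as short, and the median span was 140 kb. Both runs were chosen after their positions were seen. Which gene these peaks act on was not tested.

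In width, the Irx peaks had a median of 840 bp (95% interval of the median 621 to 1227) beside 1081 bp for all peaks. Since peaks near start sites are wider, classes of distance were compared like with like. At 10 to 50 kb the 3 Irx peaks had a median of 621 bp beside 912 bp for all peaks. Over 50 kb the 9 Irx peaks had a median of 758 bp beside 839 bp. Beyond 10 kb as a whole, the 12 Irx peaks had a median of 740 bp, with a range of 501 to 1227, beside 880 bp. That last comparison mixes classes, since 9 of the 12 lay over 50 kb, where peaks in general were narrower. Within 1 kb the peaks of Irx3 and Irx6 measured 2675 and 2010 bp beside a median of 1326 bp.

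**Figure D4:**
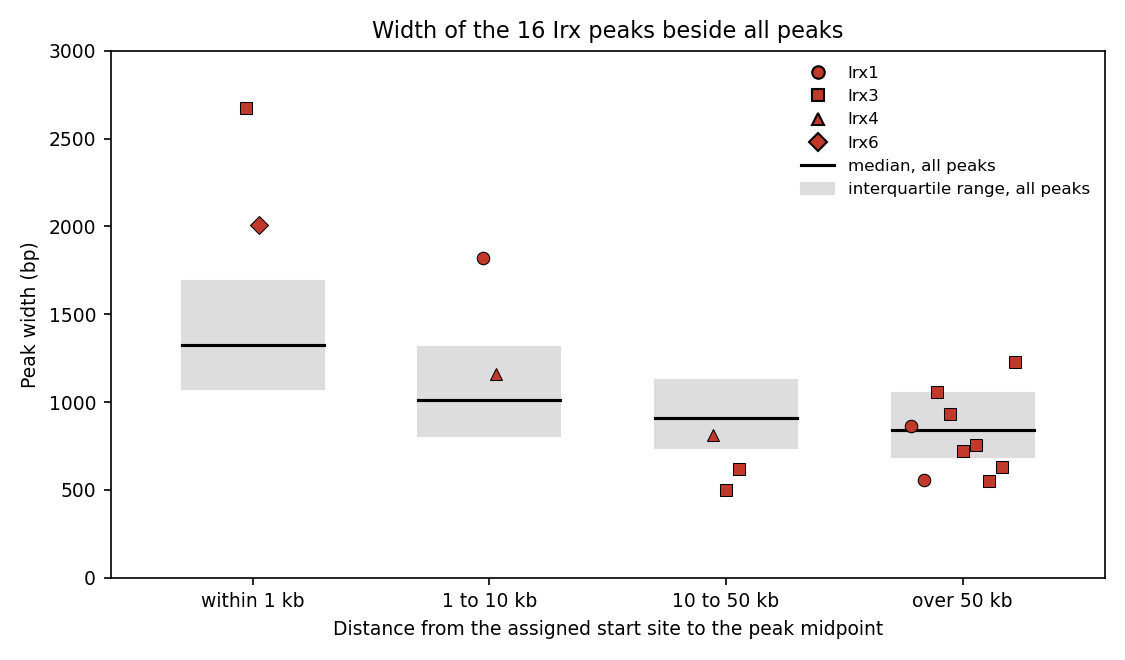
Width in bp of the 16 Irx peaks by distance from the assigned start site, with the median (line) and interquartile range (grey box) of all peaks in each class. Both peaks within 1 kb and the Irx1 gene-body peak lie above the box, and the 3 peaks at 10 to 50 kb lie below the median of 912 bp.

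The distal peaks also differed from the proximal ones in base composition, as they did over the whole list. The Irx3 and Irx6 start-site peaks had GC contents of 63.4% and 61.1%, beside a median of 58.6% for all peaks within 1 kb. The gene-body peaks of Irx1 and Irx4 had 59.3% and 58.9%, beside 53.1% for all peaks at 1 to 10 kb. The peaks of Irx3 beyond 50 kb ranged from 48.2% to 52.6%, beside a median of 50.2% for all peaks beyond 50 kb. The Irx1 gene-body peak had an observed over expected CpG ratio of 0.674, beside a median of 0.289 for peaks 1 to 10 kb from a start site.

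Letters of known binding sequences were searched on both strands in the central 300 bp of each peak. The Iroquois sequence ACANNTGT occurred in 3 of 16 Irx peaks (18.8%) beside 4.69% of all peaks. NKX2 letters AAGTG occurred in 9 (56.3%) beside 40.0%, TEAD letters GGAATG in 4 (25.0%) beside 16.5%, and GATA letters AGATAA in 2 (12.5%) beside 9.50%. Isl1 letters CTAATG occurred in 1 (6.25%) beside 6.54%, and T-box letters AGGTGTGA in none beside 1.16%. Matches to different letters were counted independently and may share bases, and with 16 peaks a single peak moves each share by 6.25 percentage points. Since 14 of the Irx peaks lay beyond 1 kb, shares were also set beside the 14460 peaks at that distance. There the Iroquois letters occurred in 21.4% of Irx peaks beside 6.80%, NKX2 letters in 64.3% beside 44.9%, TEAD letters in 28.6% beside 22.4%, GATA letters in 14.3% beside 14.6% and Isl1 letters in 7.14% beside 9.65%. Over the 24 peaks inside the clusters, whatever their symbol, TEAD letters occurred in 12.5%, GATA letters in 20.8% and Iroquois letters in 12.5%. NKX2 letters occurred there in 58.3%, Isl1 letters in 12.5% (3 peaks) beside 6.54% of all peaks, and T-box letters in none. In the central 200 bp, NKX2 letters occurred in 31.3% of Irx peaks beside 28.8% of all peaks, and Isl1 letters in none beside 4.51%. TEAD letters there occurred in 25.0% beside 11.6%, GATA letters in 12.5% beside 6.69% and Iroquois letters in 12.5% beside 3.07%. A match describes the sequence and does not show binding.

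The 3 peaks with Iroquois letters were the Irx1 gene-body peak, the farthest upstream Irx3 peak and the distal Irx4 peak. Of these, the Irx1 peak held 1164 coding bases, and the Irx3 peak aligned with 278 other peaks of the list. The distal Irx4 peak held 2 Iroquois matches and 3 TEAD matches, the most of both among the Irx peaks. The Irx3 peak 71163 bp upstream held 2 GATA matches, and the Irx3 peak in Fto held 2 NKX2 matches and 1 TEAD match. Their central windows are shown on the plus strand of mm9 with these letters, in either orientation, in capitals. They span chr13:73427715-73428014, chr8:94396567-94396866 and chr8:94100536-94100835.
Irx4, 29919 bp downstream, Irx and TEAD letters: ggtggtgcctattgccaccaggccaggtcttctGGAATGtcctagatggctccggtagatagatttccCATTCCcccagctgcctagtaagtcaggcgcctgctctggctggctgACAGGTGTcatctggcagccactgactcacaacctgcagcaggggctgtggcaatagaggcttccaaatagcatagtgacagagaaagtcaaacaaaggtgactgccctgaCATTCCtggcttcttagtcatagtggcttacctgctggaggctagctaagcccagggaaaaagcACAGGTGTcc
Irx3, 71163 bp upstream, GATA letters: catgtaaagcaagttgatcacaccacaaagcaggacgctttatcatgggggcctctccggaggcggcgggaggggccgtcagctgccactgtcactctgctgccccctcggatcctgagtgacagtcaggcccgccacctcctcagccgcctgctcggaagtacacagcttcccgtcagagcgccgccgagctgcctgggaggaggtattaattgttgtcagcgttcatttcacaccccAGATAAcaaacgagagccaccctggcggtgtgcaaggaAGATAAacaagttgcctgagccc
Irx3, 224868 bp downstream in Fto, NKX2 and TEAD letters: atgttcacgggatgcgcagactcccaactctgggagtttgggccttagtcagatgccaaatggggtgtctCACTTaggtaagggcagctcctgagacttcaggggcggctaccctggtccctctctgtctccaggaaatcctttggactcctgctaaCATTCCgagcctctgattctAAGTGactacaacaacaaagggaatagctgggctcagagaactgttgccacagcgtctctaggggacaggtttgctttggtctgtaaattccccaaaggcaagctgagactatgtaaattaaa
None of these windows overlaps an annotated exon.

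Genes were compared with Irx1, Irx3 and Irx4 by their peak counts over 8 classes of distance and side. No gene had the counts of Irx3. The smallest summed difference, 4 peaks, was shared by 8 genes, among them Podxl, Zfp644 and Igsf21 with 8, 6 and 6 peaks. These were named from the tie because their summed widths were nearest to that of Irx3. For Irx1, 7 genes had identical counts, among them Trpm1 and Nr5a2. For Irx4, 91 genes did, among them Zbtb38. Likeness here compares peak counts over this list alone.

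Other TALE homeobox genes were set beside the Irx genes. All 12 of those listed, the Meis, Pbx, Pknox and Tgif genes and Mkx, had a peak of their symbol within 1 kb, beside 2 of the 6 Irx genes. Counts by position used peaks of any symbol within 500 bp of the outermost coding start site of each gene. They were 11 of 12 for the listed genes and 3 of 6 for the Irx genes, or 4 of 6 within 1000 bp. Tgif1, the exception among the 12, had a peak 34 bp from the start site used for the deposited distance. The 12 listed genes carried 47 peaks, from 1 each for Meis3 and Pbx2 to 8 for Pknox2, and 7 each for the Hox cofactor genes Meis1 and Meis2. Irx3, with 10, had more than any of them. This difference between gene groups was not tested.

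Among 20 genes of proteins that work with Irx factors or of heart targets, 16 had a peak and 10 had one within 1 kb, beside 62.5% and 50.0% of all protein coding genes. The share within 1 kb thus equalled that of all genes. Nkx2-5, a cardiac transcription factor that acts with Irx4 and Irx5, had 3 peaks with the nearest at 86 bp, and Tbx5 had 5 with the nearest at 771 bp. Among the targets, Kcnd2, the potassium channel gene repressed through Irx5, had 1 peak at 890 bp upstream. The connexin gene Gja1 had 3 peaks, none nearer than 38115 bp, and its relative Gja5 had 1 at 19189 bp. These distances follow the assigned symbol. By position, a peak of any symbol lay within 500 bp of the outermost coding start site of Gja5, but not of Gja1. The atrial gene Nppa, the trabecular gene Bmp10, Smyd1 and Hand2 had none.

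Of 10 cardiac progenitor markers, 9 had a peak and Hand2 had none. Of 5 genes each, 4 pluripotency, 5 neural, 5 endothelial or blood and 4 endoderm markers also had a peak, with Pou5f1 and Afp at none. Of all protein coding genes, 62.5% had a peak. A peak within 1 kb was listed for 7 of the 10 cardiac markers, beside 50.0% of all protein coding genes. It was listed for 3 of 5 pluripotency, 3 of 5 neural, 2 of 5 endothelial or blood and 1 of 5 endoderm markers. These differences between small lists were not tested. The presence of a peak at any distance thus did not single out cardiac genes, and the Irx counts are read in the same way.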

How the data were processed

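ATAC-seq was performed on day 5 CPCs from 2 independent differentiations. Per the study's methods, the authors mapped reads to mm9 with bowtie2, filtered them with samtools, removed duplicates with Picard 1.136 and called peaks in each replicate with MACS14 at a fixed shift. Blacklisted peaks were dropped, and peaks overlapping by at least 1 bp in both replicates were kept with bedtools 2.15. The option given for this step keeps the interval of a single input, so listed edges and widths may be those of 1 replicate. The nearest start site was assigned with HOMER, a step described for ChIP-Seq. The deposited list holds other kinds of values than counts or scores, namely start, end and signed distance in bp, with an accession and a symbol. Widths depend on the caller and on depth, which is unknown.

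The 26429 lines gave 26232 distinct peaks, and all 16 Irx lines were distinct. Sequence came from NCBIM37 (mm9), gene models from GENCODE vM1 and coding gene names from RefSeq (GRCm38.p6). Positions are 1-based. Peaks were aligned with BLAST 2.17.0 (word size 7, E-value up to 0.001), other steps used Python 3.11.15, and counting and letter search were tested on simulated data. No test across samples was possible. Named genes were the Irx genes, listed genes, genes with peaks in the clusters and up to 3 genes most alike in peak counts. The members and lists were chosen with earlier results of these data known.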

Additional observations from a re-analysis of the deposited data

How the results depend on the processing

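Of 60 alternatives over 22 results, 45 kept the value within the stated range and 15 moved it. Given to the nearest protein coding start site, Irx2 had 7 peaks, Irx5 had 2 and IrxA had 14, and by position IrxA had 12. With only peaks at least as wide as the median of all peaks, Irx1 had 1, Irx3 had 2, Irx4 had 1, IrxA had 2 and IrxB had 3. With a peak of any symbol within 1000 or 2000 bp of the start site, settings chosen after the data were seen, 4 Irx genes had one. With peaks beyond 2 kb only, also chosen after the data were seen, the density was 1.58 per Mb from Irx2 to Irx4 and 0 from Irx5 to Irx6. In the central 200 bp, Isl1 letters were in 0 Irx peaks beside 4.51% of all peaks. NKX2 letters were in 5 (31.3%) beside 28.8%, so their share lay near that of all peaks. In the other cases the counts, the median width (840 to 787 bp) and the 75.0% of peaks beyond 10 kb stayed within 1.5 times or within their interval. The symbol rule and the width limit change the counts by construction.

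No paired analysis was possible because both samples share a single peak list, and for the same reason neither replicate was left out. Depth per sample is unknown, and a region called in 1 differentiation alone is not listed.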
